A study of Mus musculus with 208 samples.

Results

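The 7 genes described here encode neurotrophins and the receptors that bind or sort them: Bdnf, Ntf3, Ntrk2, Ntrk3, Ngfr, Sort1 and Sorcs2. They were taken by name from the 39179 genes of the deposited tables, and all 7 were found (ENSMUSG00000048482, ENSMUSG00000049107, ENSMUSG00000055254, ENSMUSG00000059146, ENSMUSG00000000120, ENSMUSG00000068747 and ENSMUSG00000029093, in that order). The study sequenced polyadenylated RNA of the striatum of C57BL/6 mice that carry 1 knock-in Htt allele, with 20, 80, 92, 111, 140 or 175 CAG repeats, and of wild-type littermates. The lines are called Q20, Q80, Q92, Q111, Q140 and Q175, and Q20, whose knock-in allele holds a repeat of normal length, is the reference here. Each line was sampled at 2, 6 and 10 months in groups of 8 libraries, for 208 libraries in 26 groups. At 6 months every line had its own group of wild types housed with it, and at 2 and 10 months 1 wild-type group housed with Q20 was made. Groups held 4 females and 4 males, except for 3 and 5 in Q80 at 2 months and 5 and 3 in Q20 at 10 months. All knock-in mice are heterozygous and keep 1 normal Htt allele, so each line is a model with both forms of huntingtin.

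Neurotrophins are secreted growth factors of neurons. Brain-derived neurotrophic factor, the product of Bdnf, binds the receptor kinase TrkB (Ntrk2), and neurotrophin 3, the product of Ntf3, binds TrkC (Ntrk3). The receptor p75 (Ngfr) binds all mature neurotrophins and, together with sortilin (Sort1) or its relative SorCS2 (Sorcs2), the uncleaved proneurotrophins, whose signal often opposes that of the Trk receptors. Striatal neurons make little BDNF themselves and receive it mainly along axons from cortical neurons, and loss of this supply has long been studied in Huntington disease. Tissue of the cortex next to the striatum can therefore carry Bdnf RNA into a striatal sample. Slc17a7, for a glutamate transporter of synaptic vesicles, is a gene of cortical excitatory neurons whose level is set beside that of Bdnf in each library.

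The receptor genes Sorcs2, Sort1 and Ntrk3 were lower in Q140 and Q175 than in Q20 at 6 and 10 months, and Ntrk2 and Ngfr were lower than in Q20 at 10 months. Against its own wild types at 6 months, Ntrk2 was lower in Q175 by counts but did not pass on FPKM, and against Q20 it did not pass at that age. With the wild types of 10 months as the reference, Ntrk2 did not pass in Q140 or Q175. Sorcs2 fell furthest, by 28.0% in Q175 against Q20 at 6 months and by 30.6% at 10 months. Bdnf did not pass the test in any line at any age, and its level followed Slc17a7 from library to library. Ntf3 was near the limit of detection and was not tested. In bulk tissue, fewer cells of a type and less RNA per cell cannot be told apart, which holds for each of these genes.

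Libraries held 29.1 to 49.55 M counts (M, 1e+06), and the middle one 35.7 M. Within a gene, levels are given as CPM, the counts in every 1e+06 after scaling of the library; between genes they are given as the deposited FPKM, which allow for gene length. The tissue label fitted its markers: Ppp1r1b, a medium spiny neuron gene, averaged 1710 CPM at 6 months, against 52.2 CPM of Slc17a7. At 2 months 7 libraries stood apart: mitochondrial genes took 17.2% to 24.1% of their counts, and 11.4% to 14.9% in the remaining 49. Libraries are named by sex (F or M) and replicate number, and the 7 were wild type F1, Q111 F2, Q80 M5 and the pairs M2, M3 of Q20 and M3, M4 of Q92. All but wild type F1 and Q111 F2 also had a median correlation under 0.97 with the libraries of their age. At 10 months Q20 M1 and wild type F3 exceeded 16% as well. A further library, Q80 M3 at 2 months, was labelled male and lacked counts of Y-linked genes. Fits without these libraries were run beside the main ones, and the calls that changed without them are given below. Other results are given with all libraries.

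The 7 genes covered a wide range of levels. In the 48 wild-type libraries of 6 months, Ntrk2 stood at 81.5 ± 3.89 FPKM (SD) and Sort1 at 80.2 ± 2.51 FPKM, and these 2 did not differ beyond their spread. Sorcs2 followed at 20.6 ± 1.55 FPKM and Ntrk3 at 16.7 ± 0.956 FPKM. Ngfr was at 3.997 ± 0.783 FPKM, Bdnf at 0.402 ± 0.244 FPKM and Ntf3 at 0.0665 ± 0.0373 FPKM. The order was the same by CPM. Wild types of 2 months held 72.6 ± 8.30 FPKM of Ntrk2, 18.1 ± 2.38 of Sorcs2 and 2.79 ± 0.456 of Ngfr (n = 8), and those of 10 months 69.8 ± 6.76, 14.9 ± 1.62 and 3.78 ± 0.471 (n = 8). Levels of different ages are set side by side without a test, since each age was fitted on its own.

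**Figure D1:**
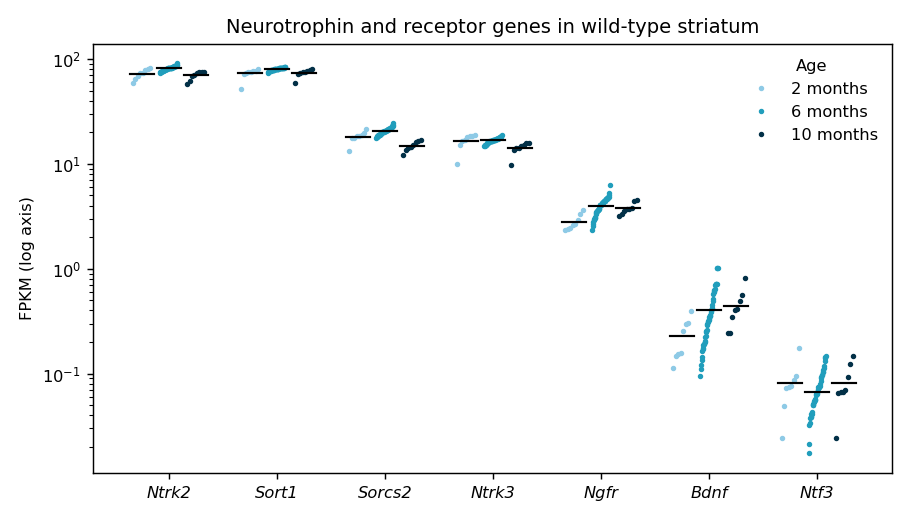
FPKM of the 7 genes (log axis) in each wild-type library, coloured by age (48 libraries at 6 months and 8 at the other ages); black lines are means. Ntrk2 and Sort1 lie near 80 FPKM at 6 months and Ntf3 at up to 0.146, and the 4 wild-type libraries of 6 months with Ntf3 at 0 are not drawn.

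The genes also differed in how much libraries of 1 group varied. At 6 months the coefficient of variation within a group had a median over the 12 groups of 2.84% for Sort1, 4.05% for Ntrk2, 6.03% for Ntrk3, 6.95% for Sorcs2 and 20.4% for Ngfr. That of Bdnf was 66.6% and that of Slc17a7 56.0%. The receptor genes other than Ngfr thus varied little between libraries of a group, while for Bdnf a standard error of 0.33 to 0.48 on the log2 scale stood behind every comparison of 2 groups.

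Bdnf has several transcription starts, each with its own promoter, and RefSeq (GRCm38.p6) lists 7 for the mouse gene, all on the plus strand of chromosome 2. The motif TCACGTNA, a form of the site to which the activity-regulated factor CREB can bind, was searched on both strands in the 250 bases before each start, since Bdnf transcription is known to follow neuronal activity. It occurred in 2 of the 7 windows, before the first and the third start in the direction of transcription. Of all 32851 RefSeq windows, 1.4% held it. The motif was chosen with Bdnf in view, so the matches mark places and are no test of enrichment. The 100 bases before both starts are shown 5′ to 3′, with the motif in capitals, because they hold the 2 matches; the gene-level counts used below add up all starts and cannot separate them.
Bdnf start 1, chr2:109674600-109674699, plus strand: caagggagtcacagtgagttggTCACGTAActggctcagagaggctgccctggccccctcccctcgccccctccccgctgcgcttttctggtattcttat
Bdnf start 3, chr2:109692336-109692435, plus strand: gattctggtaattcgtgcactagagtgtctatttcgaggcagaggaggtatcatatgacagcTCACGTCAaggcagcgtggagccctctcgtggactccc
The motif began 78 bases before the first start and 38 bases before the third. No match was found in the windows of Ntf3 (2), Ntrk2 (1), Ngfr (1) and Slc17a7 (1); Ntrk3, Sort1 and Sorcs2 had no window in the table.

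The level of Bdnf in striatal tissue was low and uneven. At 6 months its counts ran from 11 to 294 per library over 96 libraries, with a median of 53.5. In Q20 at 6 months the lowest library held 0.261 CPM, the median was 0.561 CPM and the highest, M3, held 3.58 CPM. In Q175 of that age the range was 0.851 to 1.43 CPM with a median of 1.197 CPM, inside the range of Q20. The highest value of the series was 7.96 CPM in Q92 F2 at 6 months. That library also had the highest Slc17a7, 402.9 CPM, 9.97 times the median of its age, and Q20 M3 had the highest Slc17a7 of its group, 104.6 CPM against 6.19 to 23.4 CPM in the other libraries.

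Over libraries centred on the mean of their group and sex, Bdnf and Slc17a7 rose and fell together. Pearson's r of the log2 levels was 0.893 at 6 months (96 libraries), 0.830 at 2 months (56) and 0.847 at 10 months (56), and Spearman's rho was 0.883, 0.783 and 0.854. Each had a 2-sided permutation p of 1e-05, the smallest that 100000 resamples within groups and sexes can give, and 7e-05 after Benjamini-Hochberg adjustment over the 21 relations of 7 genes at 3 ages. Without the 2 libraries farthest from the median of Slc17a7, r was 0.892, 0.826 and 0.832. Within single library codes, the L numbers in the library names, with 6 or more libraries, r lay between 0.792 and 0.975 at 6 months (8 codes), 0.579 and 0.928 at 2 months (5) and 0.749 and 0.937 at 10 months (4). At 6 months a doubling of Slc17a7 went with a rise of Bdnf by 0.776 on the log2 scale, so the number of Bdnf counts per 100 Slc17a7 counts was not constant and ran from 1.65 to 8.61 with a median of 3.30. Of all 13348 named genes with at least 1 CPM, Slc17a7 was the one whose level was most like that of Bdnf over these 96 libraries, followed by Nr4a2 (r = 0.849) and Ptpru (r = 0.830), as a description with no test.

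**Figure D2:**
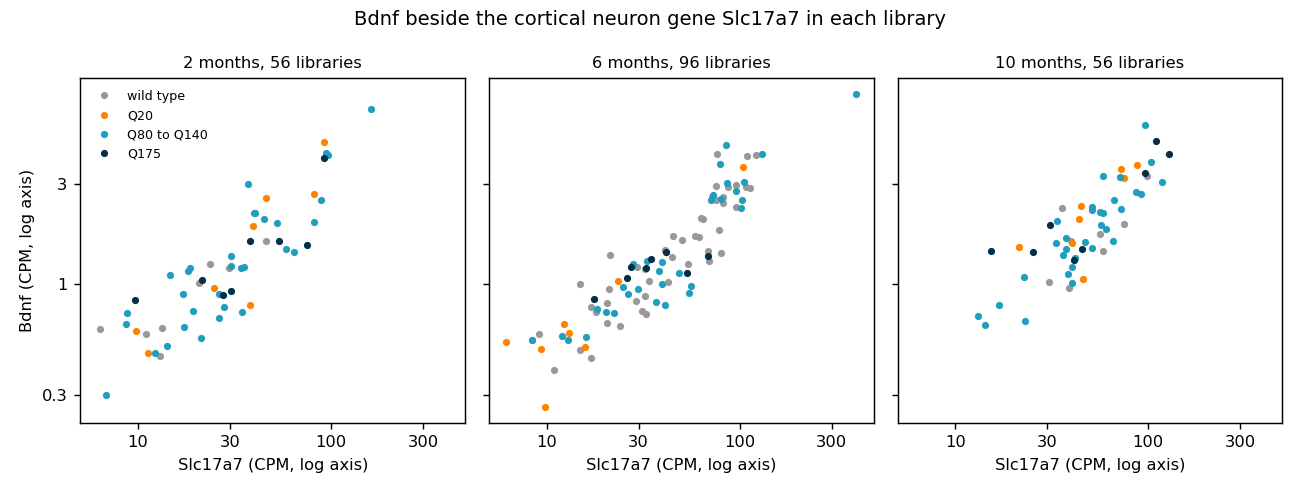
Bdnf against Slc17a7 in each library, both in CPM on log axes, with 1 panel per age; colours give wild types, Q20, Q80 to Q140 and Q175. The points of each age lie along a rising line, with Q92 F2 at 6 months (402.9 CPM of Slc17a7 and 7.96 CPM of Bdnf) at its upper end, and points of the 4 colours lie among each other.

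No line passed the test for Bdnf. In the 23 comparisons of a line with Q20 or with wild types, log2 changes of Bdnf ran from -0.85 to 1.34 and none passed the test (edgeR, adjusted p under 0.05), with 3 at an unadjusted p under 0.05. The largest was Q92 against Q20 at 6 months, with a log2 fold change of 1.34 ± 0.47 (SE), an adjusted p of 0.0707 and 6 of 8 libraries above the Q20 mean. In the same comparison Slc17a7 rose by 2.09 ± 0.54 on the log2 scale (adjusted p = 0.0112), from 24.3 ± 32.9 to 100.2 ± 126.7 CPM. With Slc17a7 as a covariate the Bdnf change of that comparison was -0.31 ± 0.23, and over all 23 comparisons Bdnf changes lay between -0.36 and 0.39 with standard errors of 0.16 to 0.25. With that covariate, no comparison passed either and 1 had an unadjusted p under 0.05. Bdnf was called higher in Q92 by 2 of the alternatives: DESeq2 (log2 change 1.35, adjusted p = 0.0417) and the fit with a replicate block (1.43, adjusted p = 0.0467). Q175 against Q20 gave log2 changes of -0.19 ± 0.41 at 2 months, 0.32 ± 0.48 at 6 months and 0.07 ± 0.33 at 10 months. When the 35 libraries with Slc17a7 above 2 times the median of their age were left out, Bdnf at 6 months became 1.01 ± 0.38 higher in Q175 (adjusted p = 0.0309) and 1.27 ± 0.40 higher in Q140 (adjusted p = 0.00979) than in Q20. Of these groups at 6 months, only Q20 M3 and Q140 F3 were left out, and no library of Q175. Q20 M3 held 3.58 CPM of Bdnf, and the other Q20 libraries at most 1.04 CPM. Libraries of other groups were left out of the same fit, and a fit without Q20 M3 alone was not run. Slc17a7 in the subset without the 35 libraries was 1.52 ± 0.44 and 1.71 ± 0.45 higher (adjusted p = 0.00349 and 0.00213). Over all libraries, 1 of the 10 cortical markers was higher in Q175 than in Q20 at 6 months (36.2% of all genes were called), Cux2, by 0.56 ± 0.16 (adjusted p = 0.00296). The summed level of the 10 ran from 134.7 to 277.8 CPM in Q20, with a median of 145.5. In Q175 it ran from 161.7 to 222.3 CPM, with a median of 189.3. Lamp5, at a mean of 87.5 CPM over the libraries of 6 months, made up much of that sum. Of all groups of 6 months, Q20 had the lowest mean of Slc17a7 (24.3 CPM) and of Bdnf (0.956 CPM). In some libraries Slc17a7 was high where the cortical markers as a list were not. Q92 M1 at 6 months held 101.3 CPM of Slc17a7 with a score of 10 cortical markers (mean of log2 levels standardised over libraries of an age) of -0.458 and a score of 6 thalamic markers of 3.12. Q111 M2 at 2 months, with 81.4 CPM, had scores of -0.355 and 2.68, and Q140 M2 at 6 months, with 55.0 CPM, had -0.643 and 2.17. With the cortical score as the covariate in place of Slc17a7, Bdnf passed in none of the 23 comparisons, but the change in Q111 against Q20 at 2 months was 0.45 ± 0.28 with that score and -0.36 ± 0.24 with Slc17a7. Which part of the Bdnf level came from striatal cells was not tested.

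Ntf3 counts were between 0 and 33 in a library, with medians of 3 at 2 months, 4 at 6 months and 5 at 10 months, and the gene did not pass the filter on low counts at any age. It was at 0 in 4 libraries of 2 months and 4 of 6 months, which allows up to 3 counts, or 0.0673 to 0.102 CPM. At 10 months Q175 had the highest mean, 0.200 ± 0.0838 CPM, and wild types the lowest, 0.111 ± 0.0495 CPM. These groups overlapped. The highest library was Q140 M1 at 2 months, with 0.993 CPM against at most 0.113 CPM in the other 7 of its group.

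Each of the other 5 genes passed the filter, so the test covered 6 of the 7, and the counts of genes below are out of these 6. At 2 months none was called in any line against Q20, and none had an unadjusted p under 0.05 or was called by DESeq2. Calls over all genes were rare there as well, at 0.0118% for Q80, 0.0% for Q92, 0.0176% for Q111, 0.0% for Q140 and 0.218% for Q175. At 6 months none was called in Q80 (0.289% of all genes) or Q92 (5.99%), with 1 and 2 at an unadjusted p under 0.05, and DESeq2 called none and 1. Then 1 was called in Q111 (12.8% of all genes), 3 in Q140 (27.9%) and 3 in Q175 (36.2%). At 10 months none was called in Q80 (0.122%) or Q92 (1.12%), with 1 each at an unadjusted p under 0.05 and none by DESeq2. At that age 3 were called in Q111 (12.5% of all genes), 5 in Q140 (22.5%) and 5 in Q175 (24.5%). Every one of these calls was a lower level. Among all genes called in Q175 at 10 months, 2136 were higher and 2076 lower. The median log2 change of the 6 genes in Q175 was -0.11 at 6 months and -0.32 at 10 months, beside 0.01 over all genes at both ages.

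**Figure D3:**
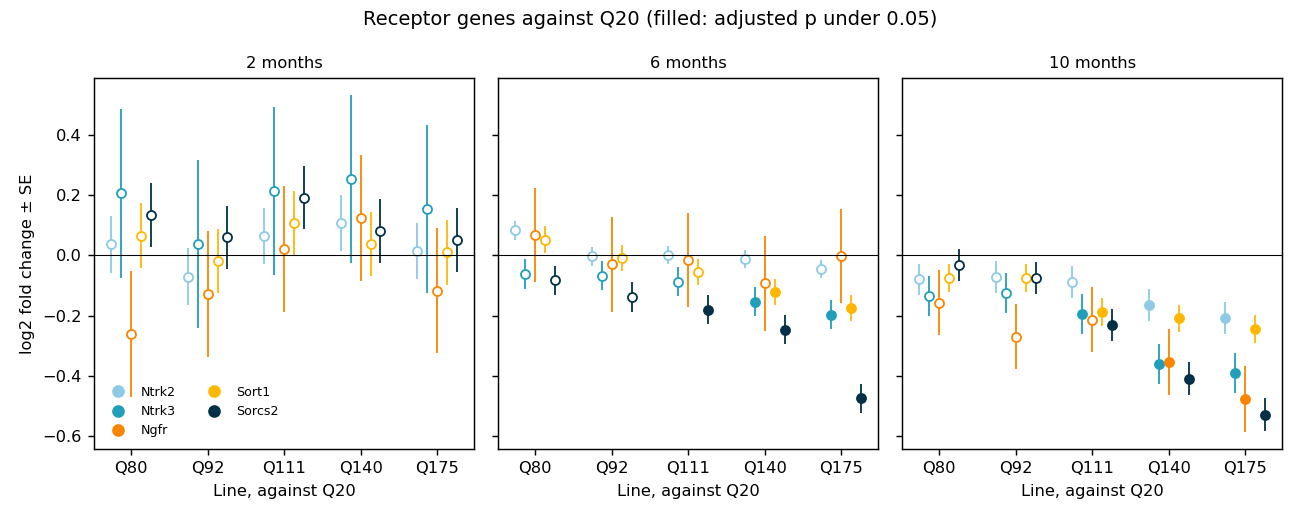
Log2 fold changes of the 5 receptor genes in each line against Q20, with standard errors, at 2, 6 and 10 months; filled points passed an adjusted p of 0.05. No point is filled at 2 months, Sorcs2 is lowest at 6 months in Q175 (-0.47), and all 5 genes are filled in Q140 and Q175 at 10 months.

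The trend over the 6 lines was fitted per 10 CAG repeats. It was called for 0 of 6 genes at 2 months (0.354% of all genes; none at an unadjusted p under 0.05 and none by DESeq2), for 3 at 6 months (39.9%) and for 5 at 10 months (32.8%). Slopes at 10 months were -0.038 ± 0.0036 for Sorcs2, -0.030 ± 0.0064 for Ngfr, -0.027 ± 0.0034 for Ntrk3, -0.017 ± 0.0026 for Sort1 and -0.014 ± 0.0028 for Ntrk2 on the log2 scale, with adjusted p from 7.09e-12 for Sorcs2 to 0.000173 for Ngfr. That of Bdnf was -0.0046 ± 0.021. Repeat length differs only between the 6 lines, and the libraries were taken as independent.

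Ntrk2, for TrkB, the receptor of BDNF, was as abundant as Sort1 and had the smallest falls of the 5 receptor genes in Q140 and Q175 at 10 months, an order between genes that was not tested. At 6 months Q20 ran from 570.4 to 637.0 CPM with a median of 593.8, and Q175 from 536.7 to 618.8 CPM with a median of 586.2. The 2 groups overlapped, and the log2 change was -0.04 ± 0.03 (adjusted p = 0.255). Against its own wild-type cage mates, which ran from 601.8 to 660.8 CPM, Ntrk2 of Q175 fell by 7.56%, a log2 change of -0.11 ± 0.03 (adjusted p = 0.0017, 8 of 8 libraries below the wild-type mean), but on FPKM the change was -0.035 and did not pass (adjusted p = 0.343). At 10 months Ntrk2 fell by 13.4% in Q175 and by 10.7% in Q140 against Q20 (log2 -0.21 ± 0.05 and -0.16 ± 0.05, adjusted p = 0.00195 and 0.0165). Q20 held 513.5 to 637.5 CPM there and Q175 454.4 to 525.1 CPM, so the ranges overlapped. On FPKM the Q140 call was lost (log2 -0.12, adjusted p = 0.0826). With the wild types of 10 months as the reference, which held 446.1 to 590.3 CPM, neither passed (-0.13 with adjusted p = 0.0503 and -0.091 with adjusted p = 0.229). Astrocytes, which express a short form of TrkB in quantity, had 5 of 10 markers lower and 2 higher in Q175 against Q20 at 10 months (24.5% of all genes were called), and the summed level of the 10 did not overlap between the groups (3235 to 3592 CPM in Q175, 3855 to 4150 CPM in Q20). That sum mostly reflects Slc1a2, which averaged 2419 CPM at 10 months, and the median log2 change of the 10 markers was -0.11. The part of these markers in the Ntrk2 change was not tested, and counts per gene do not separate the full-length and the short form.

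Ntrk3, for TrkC, the receptor of neurotrophin 3, fell in Q140 and Q175 at both later ages. At 6 months Q20 ran from 39.6 to 46.8 CPM with a median of 42.3, Q140 from 35.3 to 41.6 with a median of 39.0 and Q175 from 31.2 to 40.3 with a median of 38.5. Ntrk3 fell by 12.7% in Q175 (log2 -0.20 ± 0.05, adjusted p = 0.000656), with 8 of 8 libraries below the Q20 mean, and fell by 10.07% in Q140 (log2 -0.15 ± 0.05, adjusted p = 0.0113; -0.088 and adjusted p = 0.0985 on FPKM). Against own wild types it fell by 14.7% in Q175, without overlap, and by 9.43% in Q140 (adjusted p = 7.46e-05 and 0.0222). The Q140 call against own wild types was lost on FPKM (adjusted p = 0.0905) and with the library code as a covariate (adjusted p = 0.0563). At 10 months Q20 held 34.4 to 44.2 CPM, Q140 23.7 to 33.5 CPM and Q175 25.6 to 31.7 CPM, so neither line overlapped Q20. Ntrk3 fell by 22.0% and fell by 23.7% there (log2 -0.36 ± 0.07 and -0.39 ± 0.07, adjusted p = 4.66e-05 and 8.43e-06). In Q111 it fell by 12.65% (log2 -0.20 ± 0.07, adjusted p = 0.0423), a call that ended on FPKM, without the filter, with the replicate block (adjusted p = 0.0598) and against wild types.

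At 2 months Ntrk3 was the gene of the set that the libraries rich in mitochondrial counts touched most. Q80 M5, with the highest mitochondrial share of the series, held 2.41 CPM of Ntrk3 against 39.6 to 49.0 CPM in the other 7 Q80 libraries. In Q20 and Q92 of that age the lowest libraries held 9.99 and 12.4 CPM, with medians of 39.0 and 40.3 CPM. Sort1 in Q80 M5 was 284.1 CPM against 441.1 to 485.0 CPM, and Sorcs2 55.7 CPM against 94.6 to 118.4 CPM. Without all such libraries, the trend of Sort1 at 2 months turned from 0.0013 to -0.011 per 10 repeats and passed the test (adjusted p = 0.0261), while those of Sorcs2 (-0.0083, adjusted p = 0.186) and Ntrk3 (-0.011, adjusted p = 0.147) did not.

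Ngfr, for p75, passed the test in Q140 and Q175 at 10 months. Q20 ran there from 11.6 to 20.8 CPM, with a mean of 14.8 ± 3.13, Q140 from 9.58 to 14.1 with a median of 11.6 and Q175 from 8.47 to 12.5 with a median of 10.7. All 8 libraries of both lines lay below the Q20 mean, and their ranges overlapped that of Q20. Ngfr fell by 28.1% in Q175 (log2 -0.48 ± 0.11, adjusted p = 0.000702) and fell by 21.7% in Q140 (log2 -0.35 ± 0.11, adjusted p = 0.0135). For Q140 the call ended against the wild types of that age (log2 -0.20, adjusted p = 0.203) and with scores of cortical, thalamic and choroid plexus genes as covariates (-0.28, adjusted p = 0.0657). At 6 months Q175 and Q20 held 12.7 ± 2.61 and 12.75 ± 2.585 CPM. The difference of the Q175 effect between 10 and 6 months was -0.49 ± 0.23 and did not pass (adjusted p = 0.826). In the forebrain p75 is best known from cholinergic neurons. Of 5 measured cholinergic markers, 3 were lower and none higher in Q175 against Q20 at 10 months, beside 24.5% of all genes called. In Q140 4 were lower and 1 higher at that age (22.5% of all genes), and in Q111 none was lower and 1 higher (12.5%). At 6 months 2 were lower and 1 higher in Q175 (36.2%), the higher one being Isl1 (0.23 ± 0.06, adjusted p = 0.000534). The summed level of the 5 at 10 months ran from 117.7 to 166.6 CPM in Q175 and from 151.2 to 188.5 CPM in Q20. The part of these markers in the Ngfr change was not tested. Ngfr was most like Sphkap (r = 0.713), Rxfp2 (0.704) and Dgkk (0.667) over the 96 libraries of 6 months.

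Sort1, for sortilin, which sorts proneurotrophins and other proteins between the Golgi, endosomes and the cell surface, fell by a small and even amount. In wild types housed with Q175 at 6 months it ran from 480.8 to 525.8 CPM with a median of 502.0, and in Q175 from 405.5 to 429.5 CPM with a median of 415.8. The groups did not overlap, and Sort1 fell by 16.9% (log2 -0.27 ± 0.04, adjusted p = 4.91e-07). In Q140 it fell by 13.1% against own wild types, at 412.7 to 460.5 CPM against 476.4 to 511.3 CPM (log2 -0.20 ± 0.04, adjusted p = 0.000185). At 10 months Sort1 fell by 15.5% in Q175, fell by 13.5% in Q140 and fell by 12.2% in Q111 against Q20, from 433.6 to 479.7 CPM in Q20 to at most 429.4 CPM in any of the 3 lines (adjusted p = 5.16e-05, 0.000521 and 0.00302).

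One library changed the comparisons of Sort1 with Q20 at 6 months. Q20 F2 held 281.2 CPM of Sort1, and the other 7 Q20 libraries 478.6 to 517.4 CPM. It stood at 56.5% of their mean, a log2 difference of -0.82, while its Ntrk3 (41.3 CPM), Sorcs2 (125.7 CPM) and Ngfr (14.7 CPM) lay between the values of the other 7, and its Ntrk2 (570.4 CPM) was just below theirs (578.9 to 637.0 CPM). Over the other 55 wild-type and Q20 libraries of 6 months, Sort1 of this library had a z of -17.25 standard deviations, the most extreme of 14540 genes with at least 1 CPM, and Fbxo41 came next at -7.22. The neighbours of Sort1 on the chromosome did not share the drop: over 5 measured genes on one side and 3 on the other, log2 differences of Q20 F2 from its group ran from -0.06 for Celsr2 to 0.10 for Psma5. With all 8 Q20 libraries, Sort1 fell by 11.4% in Q175 (log2 -0.17 ± 0.04, adjusted p = 0.000815) and fell by 8.07% in Q140 (log2 -0.12 ± 0.04, adjusted p = 0.028) against Q20, calls that were lost in a fit of only the 2 groups (adjusted p = 0.162 and 0.378). The Q140 call was also lost on FPKM (adjusted p = 0.163), with the library code (0.0585) and without libraries high in Slc17a7 (0.0555). Without Q20 F2 the log2 changes were -0.26 in Q175 and -0.20 in Q140 (adjusted p = 2.46e-16 and 1.08e-11), Q111 became -0.14 (adjusted p = 4.37e-06) and Q92 -0.089 (adjusted p = 0.0144). This library was singled out after its value was seen, and why its Sort1 was low was not tested.

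**Figure D4:**
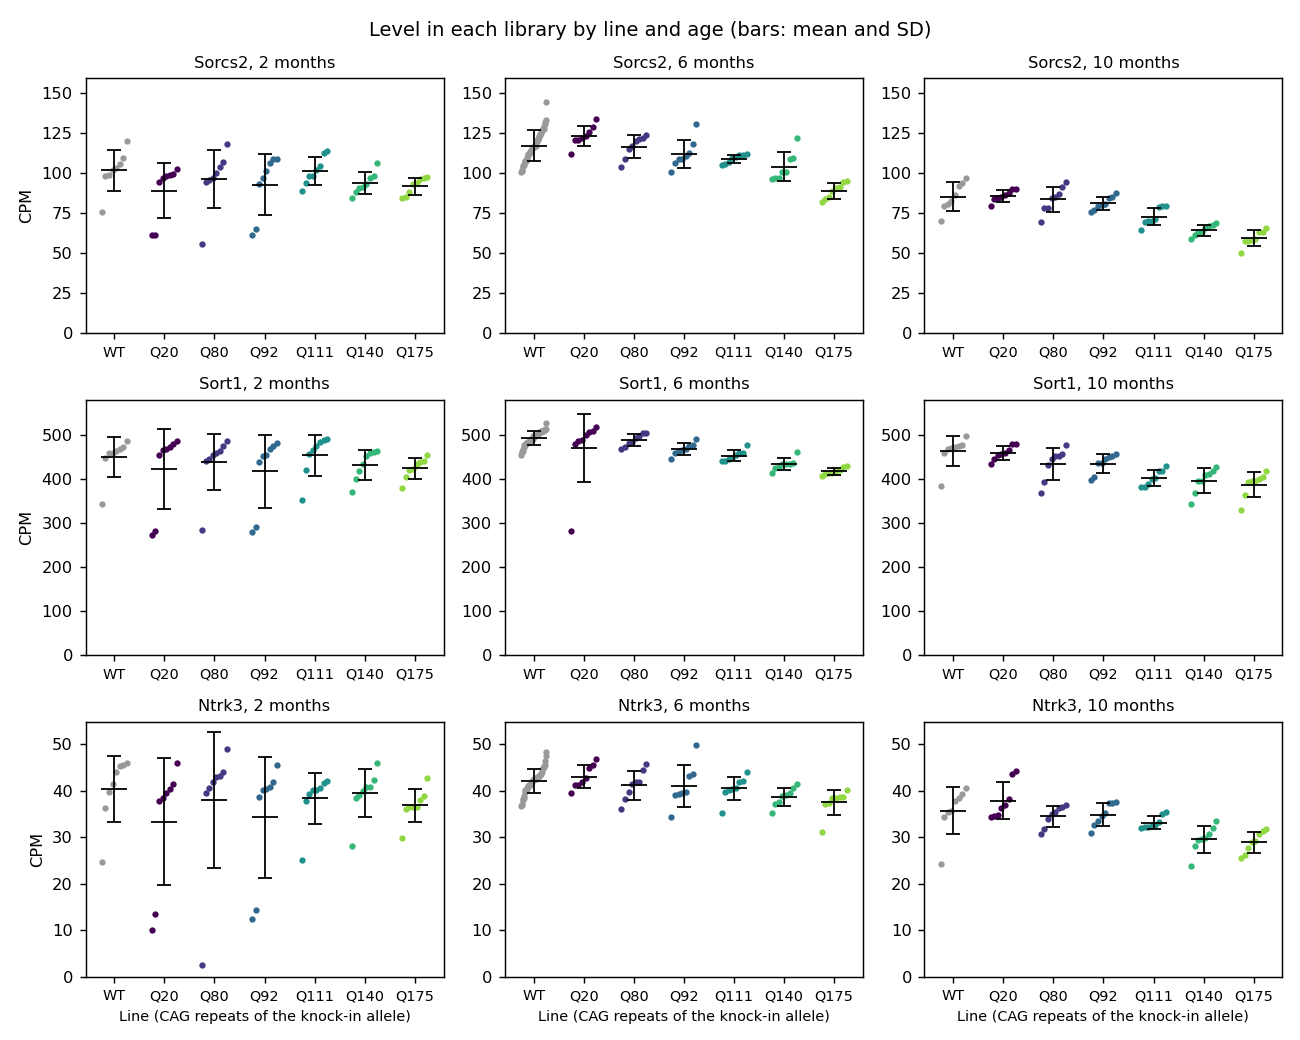
CPM of Sorcs2, Sort1 and Ntrk3 in each library (points) by line, with wild types in grey, at 2, 6 and 10 months; bars are the mean and SD, of 48 wild-type libraries at 6 months and of 8 libraries otherwise. Sorcs2 steps down from Q20 (123.6 CPM) to Q175 (89.0 CPM) at 6 months, Sort1 of Q20 F2 lies alone at 281.2 CPM, and the low points at 2 months come mostly from the libraries rich in mitochondrial counts.

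Sorcs2, for SorCS2, a sorting receptor that pairs with p75 in proneurotrophin signalling and is prominent in medium spiny neurons, had the largest fall of the 6 genes in Q175 at 6 and 10 months. At 6 months Q20 ran from 112.1 to 133.8 CPM with a median of 122.9, Q92 from 100.9 to 130.6 with a median of 109.8, Q111 from 105.0 to 111.8 with a median of 109.8, Q140 from 96.5 to 122.1 with a median of 100.7 and Q175 from 82.1 to 95.4 with a median of 89.7. The group means fell in the order of repeat length, from 123.6 CPM in Q20 to 116.7 CPM for Q80, 112.2 CPM for Q92, 109.1 CPM for Q111, 104.1 CPM for Q140 and 89.0 CPM for Q175. Q175 lay apart from all other groups of that age, and its gap to the next, Q140, was the 1 gap between neighbours in the order of the 12 groups at which the libraries did not overlap. Log2 changes against Q20 did not pass for Q80 (-0.08 ± 0.05, adjusted p = 0.512) and Q92 (-0.14 ± 0.05, adjusted p = 0.0713). They passed for Q111 (-0.18 ± 0.05, adjusted p = 0.00556), Q140 (-0.25 ± 0.05, adjusted p = 2.79e-05) and Q175 (-0.47 ± 0.05, adjusted p = 7.54e-14). The Q111 call ended with Slc17a7 as a covariate (-0.14, adjusted p = 0.0581). Against their own wild types, Sorcs2 fell by 23.2% in Q175 and fell by 13.05% in Q140 (adjusted p = 3.47e-10 and 0.000769), and Q111 did not pass (-0.07 ± 0.05, adjusted p = 0.430).

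At 10 months Sorcs2 ran from 79.5 to 90.1 CPM in Q20, from 64.6 to 79.5 in Q111, from 59.1 to 69.0 in Q140 and from 50.2 to 65.8 in Q175. Q140 and Q175 did not overlap Q20, and Q111 touched it. Sorcs2 fell by 14.8%, fell by 24.7% and fell by 30.6%, with log2 changes of -0.23 ± 0.05, -0.41 ± 0.05 and -0.53 ± 0.05 (adjusted p = 0.00151, 3.36e-08 and 1.97e-11). Q80 and Q92, at -0.03 ± 0.05 and -0.07 ± 0.05, did not pass.

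The fall of Sorcs2 in Q175 differed between ages, and no other of the 6 genes passed this test. The Q175 effect at 6 minus that at 2 months was -0.52 ± 0.10 on the log2 scale (adjusted p = 5.81e-05) and that at 10 minus 2 months was -0.59 ± 0.10 (adjusted p = 4.60e-06), where the tests called 7.93% and 6.43% of all genes. Without the libraries rich in mitochondrial counts these were -0.39 (adjusted p = 1.37e-05) and -0.44 (adjusted p = 3.50e-06), and Ntrk3 passed as well at 10 minus 2 months (-0.27, adjusted p = 0.0268). At an unadjusted p under 0.05, 4 of the 6 genes differed at 10 minus 2 months. With the library code as a covariate Ntrk3 and Sort1 passed in both differences and Ntrk2 at 10 minus 2 months, and with the 3 tissue scores Sort1 and Ntrk2 at 10 minus 2 months. Without Q20 F2, Sort1 passed at 6 minus 2 months (-0.27, adjusted p = 0.0497). Between 10 and 6 months none of the 6 genes passed (0.0112% of all genes; 2 at an unadjusted p under 0.05, none by DESeq2), and Sorcs2 differed by -0.07 ± 0.10. A difference of the Q175 effect between males and females was called for none of the 6 at 2, 6 or 10 months, with 0.0%, 0.0% and 0.0% of all genes called, none of the 6 at an unadjusted p under 0.05 and none by DESeq2. For Sorcs2 the difference, males minus females, was 0.02 ± 0.10 at 6 months.

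Sorcs2 and Htt lie on the same chromosome, with 14 protein-coding genes of RefSeq between them, so the knock-in allele and nearby sequence that came with it segregate together with Sorcs2. Q20 carries such an allele too, and its Sorcs2 did not differ past the test from wild types at 6 months (0.11 ± 0.05, adjusted p = 0.844). The same held at 10 months (0.003 ± 0.05, adjusted p = 0.996) and 2 months (-0.20 ± 0.11, adjusted p = 0.897). Htt itself fell by 0.41 ± 0.03 on the log2 scale in Q175 against Q20 at 6 months. Effects of linked sequence and of repeat length cannot be told apart where a line differs in both.

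The controls gave few calls. Q20 against its own wild types at 6 months called none of the 6 genes (0.0227% of all genes; 1 at an unadjusted p under 0.05, none by DESeq2), as did Q20 against wild types at 2 months (0.0%; 1 and none) and at 10 months (0.0116%; none and none). Q80 (0.051%) and Q92 (0.051%) against their own wild types called none, with none at an unadjusted p under 0.05 and none by DESeq2, and Q111 none (8.94%; 2 and none). In Q140 3 were called (24.2% of all genes) and in Q175 4 (31.8%). A joint test over the 6 groups of wild types at 6 months called none of the 6 genes (1.34% of all genes; 1, Ntrk2, at an unadjusted p under 0.05; DESeq2 was not run for this test). The comparisons with Q20 share its 8 libraries at each age, and those with own wild types at 6 months share none of the reference libraries.

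Medium spiny neurons, which make up most striatal neurons, had 9 of their 10 markers lower and none higher in Q175 against Q20 at 6 months, and again 9 at 10 months, beside 36.2% and 24.5% of all genes called. Penk, for the opioid peptide precursor enkephalin, fell by 1.23 ± 0.07 on the log2 scale at 6 months and Pde10a, a phosphodiesterase, by 0.99 ± 0.07. The summed level of the 10 markers ran from 4094 to 4768 CPM in Q175 and from 7340 to 8624 CPM in Q20. The falls of Sorcs2, Sort1 and Ntrk3 were smaller than the list's median of -0.84, and the part of these markers in them was not tested. Over the 96 libraries of 6 months, centred on group and sex, Sorcs2 was most like Zfyve28 (r = 0.792), Osbp2 (0.782) and Scn4b (0.781), Ntrk3 most like Unc79 (0.783), Lmo7 (0.760) and Cobl (0.751), and Ntrk2 most like Bach2 (0.590), Hdac8 (0.543) and Hdac4 (0.543). Sort1 was most like Fbxo41 (0.6246), which was also low in Q20 F2, then Cntnap1 (0.417). Over the 26 group means, centred on age, Sorcs2 was most like Iqgap2 (0.958), Myt1l (0.956) and Phf24 (0.953), Sort1 most like Kif5c (0.951), Slc4a4 (0.942) and Fnbp1 (0.942), and Ntrk3 most like Chat (0.960), Plekha5 (0.941) and Cacna1e (0.940). Among themselves the 7 genes were weakly alike within groups: the highest r was 0.462, between Ntrk3 and Sorcs2, and the lowest -0.345, between Bdnf and Sorcs2. Sorcs2 was also lower where Slc17a7 was higher at 6 months (r = -0.354, rho = -0.353, permutation p = 0.00167 and 0.00183, adjusted 0.00877 and 0.00961; r = -0.356 without the 2 farthest libraries), with r from -0.736 to 0.039 within the 8 library codes and -0.246 over the wild types alone (adjusted p = 0.562). No other relation to Slc17a7 passed.

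Genes of the wider pathway are given against the share of all genes called in Q175 against Q20, 36.2% at 6 months and 24.5% at 10 months. Of 6 other ligands and receptors of the family, 5 were measured well enough to test. In Q175 against Q20, Sorcs3, a sorting receptor related to Sorcs2, was lower at 6 months (log2 -0.20 ± 0.06, adjusted p = 0.00588) and at 10 months (-0.34 ± 0.07, adjusted p = 0.000420). Of 30 adaptors and kinases downstream of Trk receptors, 6 were lower and 3 higher at 6 months, with a median change of 0.004, a share of calls below that over all genes. The lower ones included the adaptor Shc2 (57.9 ± 4.20 CPM in Q20 and 45.5 ± 2.11 CPM in Q175, without overlap, adjusted p = 1.11e-12) and the phosphatase Ptpn11 (log2 -0.10 ± 0.03). The higher ones were the adaptor Gab2 (0.17 ± 0.06), the exchange factor Sos1 (0.12 ± 0.04) and the transcription factor Creb1 (0.11 ± 0.04). At 10 months 2 of the 30 were lower and 2 higher, again a share below that over all genes. Of 9 partners of p75, 2 were higher and 1 lower at 6 months, near the share over all genes: Bex3 (0.19 ± 0.03) and Maged1 (0.17 ± 0.02), which bind the intracellular part of p75, rose without overlap between the groups, and Irak1 fell (-0.07 ± 0.02).

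Of 15 tested genes for processing and transport of neurotrophins, 5 were higher and 2 lower in Q175 against Q20 at 6 months, beside 36.2% of all genes called. The proprotein convertase Pcsk1 rose by 0.38 ± 0.13, the protease inhibitor Serpini1 by 0.30 ± 0.08 and Hap1, for a partner of huntingtin in axonal transport, by 0.26 ± 0.10 on the log2 scale. The convertase Pcsk2 fell by 0.20 ± 0.04 and the carboxypeptidase Cpe by 0.07 ± 0.03. Against own wild types 3 of the 15 were higher and 1 lower, a share below the 31.8% of all genes called. Of 11 genes that BDNF induces in neurons, 9 fell and none rose against Q20 at 6 months, with a median of -0.75 and 36.2% of all genes called. At 10 months 3 fell with a median of -0.13, near the 24.5% of all genes called. Against its own wild types at 6 months, Q175 had 5 of the 11 lower and none higher, with a median of -0.52 and 31.8% of all genes called. Against Q20, Egr2 went from 20.6 ± 6.69 CPM in Q20 to 4.76 ± 1.26 CPM in Q175 (log2 -2.11 ± 0.36, adjusted p = 1.41e-06), Nr4a1 fell by 0.94 ± 0.29 and Egr1 by 0.93 ± 0.20. These are immediate early genes that many stimuli induce, BDNF among them. Of 10 regulators of Bdnf transcription, 3 fell and 1 rose against Q20 at 6 months, near the 36.2% of all genes called. The activity-induced factor Npas4 (log2 -0.99 ± 0.21), the CREB coactivator Crtc1 (-0.20 ± 0.04) and Mef2d (-0.12 ± 0.03) were lower, and Usf1 was higher (0.08 ± 0.03). Bdnf itself changed by 0.32 ± 0.48. Against own wild types, 1 of the 10 regulators was lower and 1 higher, a share below the 31.8% of all genes called. The lists were chosen with earlier results of these data known, so their counts are no independent evidence of direction.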

How the data were processed

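RNA of 208 striatal samples was sequenced, with CASAVA 1.8.2 named in the submitters' processing notes; no aligner or build is named there or in the labels. The authors deposited expected counts per Ensembl gene, which were rounded here, and FPKM per gene for the same libraries, scaled by the authors to fragments and gene length. A symbol was found for 37607 of 39179 gene IDs. No library was a copy of another (0 pairs with identical counts). The labels do not say whether 1 library is 1 mouse, so p-values measure the spread between libraries.

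Each age was fitted with edgeR 4.0.16 in R 4.3.3: genes kept by filterByExpr (minimum count 10, total 15), TMM factors, a quasi-likelihood F test with robust moderation and sex as a covariate, and Benjamini-Hochberg adjustment over all genes. Differences between ages came from 1 fit of all libraries. Log2 CPM for relations used a prior count of 1. Alternatives were DESeq2 1.42.0, RLE factors, no filter, limma 3.58.1 on log2(FPKM + 1) for genes of at least 1 FPKM in 8 libraries, which leaves out Bdnf and Ntf3, a replicate block, the library code, only the groups compared, wild types as reference, Slc17a7 or tissue scores as covariates, left-out libraries, and other forms of the trend. Chosen after seeing the data were the fits without Q20 F2 at 6 months, without libraries above 16% mitochondrial counts and without the library lacking Y-linked counts. The script was tested on simulated data. Figures used matplotlib 3.10.9.

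The 7 genes and the lists were chosen with earlier results of these data known. Beside them, Slc17a7 and Htt, the genes named are, per pathway list, up to 3 called rises and 3 called falls in Q175 against Q20 at 6 months of at least 1 CPM, and the 3 genes most like each gene; other pathway and marker genes were named for context. A few genes that this rule takes in are not reported here.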

Additional observations from a re-analysis of the deposited data

Results flagged for a closer look

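Over 7 genes in 26 groups of 8, 182 sets of values were screened for a highest or lowest library set apart from the other 7 by Dixon's criterion, and 22 were found. For normal and independent values the criterion flags about 1 in 20. The sets of different genes share libraries, and CPM of Bdnf and Ntf3 are low and uneven, so the 22 cannot be weighed against that rate. Of the 22, 10 came from libraries above 16% mitochondrial counts. Q80 M5 at 2 months was lowest for 4 genes, Ntrk2 (353.3 CPM, others 502.5 to 603.9), Ntrk3 (2.41 CPM), Sort1 (284.1 CPM) and Sorcs2 (55.7 CPM). Wild type F1 at 2 months was lowest for Ntrk3 (24.7 CPM) and Sort1 (342.1 CPM), wild type F3 at 10 months for Ntrk3 (24.2 CPM) and Sort1 (384.2 CPM), and Q111 F2 at 2 months for Ntrk3 (25.2 CPM). Other low values were Ntrk3 in Q140 F4 at 2 months (28.1 CPM) and Q175 F2 at 6 months (31.2 CPM), Ngfr in M3 of the wild types housed with Q111 (8.32 CPM, others 13.97 to 17.1), and Sort1 in Q20 F2 at 6 months (281.2 CPM). Sort1 was high in Q140 M3 at 6 months (460.5 CPM).

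Bdnf was high in Q175 F1 at 2 months (3.97 CPM, others 0.843 to 1.59), Q20 M3 at 6 months (3.58 CPM) and Q92 F2 at 6 months (7.96 CPM). Ntf3, with a few counts per library, was high in Q140 M1 (0.993 CPM) and Q92 M3 (0.321 CPM), the latter rich in mitochondrial counts, at 2 months, in Q140 F3 (0.201 CPM, others 0.0247 to 0.0996) and in M4 of the wild types housed with Q111 (0.206 CPM) at 6 months, and was at 0.0 CPM in F3 of the wild types housed with Q20.

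The Q175 effect on Sorcs2 differed between ages by the test of the difference itself, by -0.52 on the log2 scale at 6 against 2 months and by -0.59 at 10 against 2 months.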

How the results depend on the processing

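Of 2431 values of single genes under 19 alternatives, 2386 kept their direction and side of the threshold, 20 lost a call, 24 gained one and 1 turned, Sort1 in the trend at 2 months without libraries rich in mitochondrial counts (-0.011); the cause of these shifts was not tested. The number of the 6 tested genes called moved by more than 1.5 times as follows. Q111 against Q20 at 6 months went from 1 to 0 with Slc17a7 as a covariate and to 2 with wild types as reference or without Q20 F2, and Q111 against its own wild types from 0 to 1 with the 3 tissue scores or without Q20 F2. Q140 against Q20 went from 3 to 1 on FPKM at 6 months, where Bdnf is not tested, and from 5 to 3 against wild types at 10 months. Q92 against Q20 at 6 months went from 0 to 1 with DESeq2, with the replicate block and without Q20 F2. The trend at 2 months went from 0 to 1 without libraries rich in mitochondrial counts. The difference of the Q175 effect between 10 and 2 months went from 1 to 3 with the 3 tissue scores, to 4 with the library code and to 2 without libraries rich in mitochondrial counts, and that between 6 and 2 months to 3 with the library code and 2 without Q20 F2. Libraries with the same number share nothing else in the labels, so the replicate block was not taken as a pairing. Same-numbered libraries of different groups correlated at a mean of 0.055 at 6 months against -0.018 for other pairs, and at 0.018 against -0.0057 at 10 months. Levels were centred on group and sex, which ties the 2 means to each other, and their difference was not tested. Beyond Q92, the replicate block lost 1 call, Ntrk3 in Q111 at 10 months (-0.20). Sorcs2 in Q175 against Q20 was called in all 13 alternatives at 6 months (-0.49 to -0.38) and in all 13 at 10 months (-0.53 to -0.44). Depth limits Ntf3 and Bdnf, with medians of 4 and 53.5 counts at 6 months.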
